A study of Homo sapiens with 4 samples.

Results

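OGT, MGEA5 and GNPDA1 are 3 genes of O-linked N-acetylglucosamine (O-GlcNAc) metabolism, picked by their symbols from a table of 426 genes in which their transcripts were compared between OGT-depleted and wild-type MEG-01 cells. MEG-01 is an established line of human megakaryoblasts that releases platelet-like particles in culture. There were 2 OGT-depleted libraries, made by CRISPR/Cas9 knockdown of OGT according to the design text, and 2 wild-type (WT) libraries, all from cells in RPMI medium with fetal bovine serum. The guide sequence, the use of single clones or pools, and whether WT cells carried Cas9 or a control guide are not stated in the labels. The depleted columns are headed OGTi in the table, and they were taken as the CR_OGT libraries because the deposited CR_OGT means are made from them. The table holds only genes that the authors called as changed, 426 of about 13154 tested, so the presence of the 3 genes in it is the authors' call and not an independent result. The labels do not say that the 2 libraries of a group came from separate cultures, so the p-values reflect only how far these libraries vary, and that variation may be technical.

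O-GlcNAc is a single sugar attached to serine and threonine residues of nuclear, cytosolic and mitochondrial proteins. OGT adds it, with UDP-GlcNAc from the hexosamine pathway as the donor, and OGA, the enzyme that MGEA5 encodes, removes it. GNPDA1 acts upstream, converting glucosamine-6-phosphate, the first amino sugar of the hexosamine pathway, to fructose-6-phosphate and ammonia, and so can return hexosamine phosphate to glycolysis. Transcripts of OGT and of OGA are both known to carry introns whose removal responds to the O-GlcNAc level of the cell. Read counts measure transcript only, not the edit, the proteins or O-GlcNAc itself.

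The sequences upstream of the 3 annotated starts are shown because the comparison turns on 2 transcripts that were lower together and 1 that was higher. Each is the 250 bases before the RefSeq gene start on GRCh38.p14, written in the direction of the gene, with matches to 6 motifs in capitals on either strand. The AP-1 and NF-E2 motif was read as TGAGTCA, while the E-box was read as CACGTG. For GATA factors the letters searched were AGATAA, and for ETS factors they were CCGGAAG. The motif of NRF1 was searched as GCATGCGC, and that of the GC box as GGGCGG. These motifs were chosen with the sequences in view, no match overlapped another, and all 3 genes had an entry in the promoter table.
OGT (chrX:71532854-71533103, plus strand): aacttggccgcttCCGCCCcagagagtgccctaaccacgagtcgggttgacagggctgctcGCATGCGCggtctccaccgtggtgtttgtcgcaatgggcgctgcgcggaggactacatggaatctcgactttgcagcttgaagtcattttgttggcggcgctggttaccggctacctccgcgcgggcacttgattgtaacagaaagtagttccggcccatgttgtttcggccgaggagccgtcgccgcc
MGEA5 (chr10:101818445-101818694, minus strand): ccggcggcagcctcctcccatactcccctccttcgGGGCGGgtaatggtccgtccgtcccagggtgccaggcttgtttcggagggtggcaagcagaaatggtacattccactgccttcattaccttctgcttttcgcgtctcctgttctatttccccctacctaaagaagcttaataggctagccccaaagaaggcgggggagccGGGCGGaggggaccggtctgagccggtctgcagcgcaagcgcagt
GNPDA1 (chr5:142013028-142013277, minus strand): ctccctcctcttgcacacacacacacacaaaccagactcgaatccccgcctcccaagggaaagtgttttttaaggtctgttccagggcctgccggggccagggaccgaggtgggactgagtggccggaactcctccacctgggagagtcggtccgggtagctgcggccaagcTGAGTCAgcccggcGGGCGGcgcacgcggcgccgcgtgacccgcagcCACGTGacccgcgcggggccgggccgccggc

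The OGT and MGEA5 windows had the same GC content, 60.8%, and the GNPDA1 window 69.6%, against a median of 58% over 35116 promoters. They held 25, 16 and 25 CpG sites, in the order OGT, MGEA5, GNPDA1, against a median of 11. The OGT window had 1 GC box and 1 NRF1 motif, the MGEA5 window 2 GC boxes, and the GNPDA1 window 1 GC box, 1 E-box and 1 AP-1 and NF-E2 motif. A GC box was found in 42.6% of all promoter windows, an NRF1 motif in 2.63%, an E-box in 6.34% and the AP-1 and NF-E2 motif in 4.20%. The GATA and ETS letters, held by 9.17% and 8.52% of all windows, were in none of the 3. The only motif found in all 3 windows was thus the GC box, a common one. The authors' annotation spans 21293 bases for GNPDA1 where RefSeq has 12357. Spans alone do not tell which end differs, and the start used in these cells is not known. The spans were close for OGT (42815 bases in the authors' annotation, 42789 in RefSeq) and MGEA5 (34497 and 33995 bases). A match of letters is a description of the window and not a bound site.

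OGT, the targeted gene, was below the WT level in each OGT-depleted library, but its transcript was far from absent. The gene (ENSG00000147162) lies on chromosome X from 70752933 to 70795747 in hg19. Its level was 66.9 and 93.1 FPKM (fragments per kilobase, scaled to the counted reads) in OGT-depleted cells, against 114.9 and 145.8 FPKM in WT cells. The groups did not overlap, and the higher depleted library stood at 81.0% of the lower WT library. The mean was 80.0 ± 18.6 FPKM in OGT-depleted cells and 130.4 ± 21.8 FPKM in WT cells (SD, n = 2 each). After scaling by size factors the counts were 9124 and 12185 in OGT-depleted cells and 16012 and 19190 in WT cells. Taking each depleted library against each WT library gave between 47.5% and 76.1% of WT, so the size of the decrease depended on which libraries were set against each other. The fitted log2 fold change was -0.72 ± 0.16 (SE), or 60.5% of WT, with an adjusted p of 0.0327 in edgeR's quasi-likelihood test. In the authors' deposited table its log2 fold change is -0.63 and its adjusted p 0.00104. The log2 fold change was -0.85 without WT replicate 1 and -0.59 without WT replicate 2. It was -0.53 without OGT-depleted replicate 1 and -0.95 without OGT-depleted replicate 2. Each of these fits left 1 library in a group, so how far the call rests on a single library cannot be told from them. In bulk RNA, fewer cells with the transcript and less transcript per cell cannot be told apart.

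**Figure D1:**
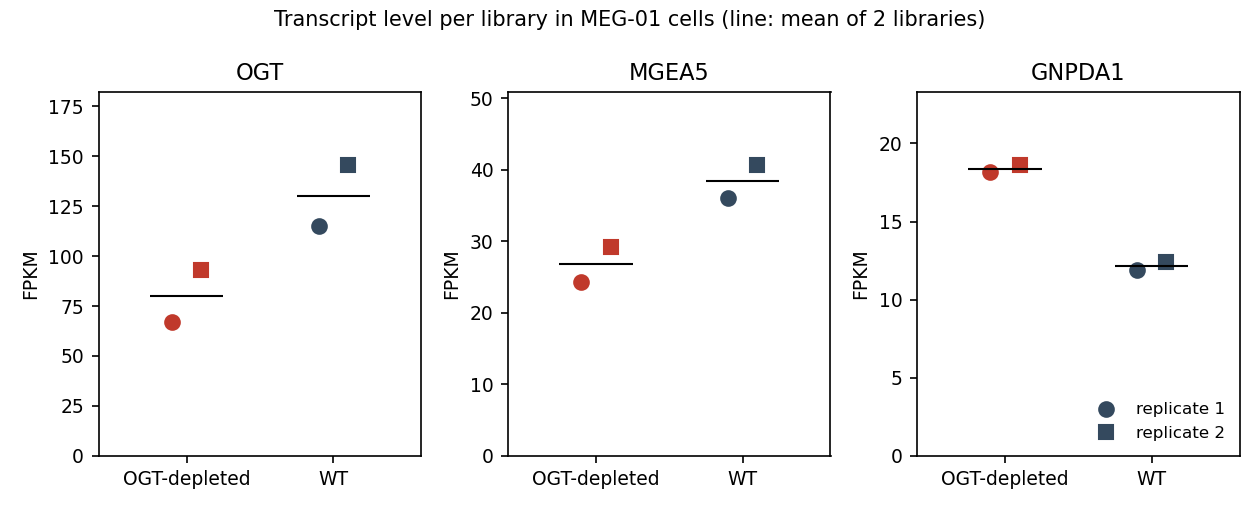
FPKM of OGT, MGEA5 and GNPDA1 in each library (circles replicate 1, squares replicate 2), with OGT-depleted libraries left of WT libraries and a line at each group's mean. OGT and MGEA5 are lower in both OGT-depleted libraries, with replicate 2 above replicate 1 in each group, and GNPDA1 is higher with little spread.

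MGEA5, the gene of the opposing enzyme OGA, was also lower in both OGT-depleted libraries. It lies on chromosome 10 from 103544200 to 103578696 in hg19 (ENSG00000198408). Its level was 24.3 and 29.2 FPKM in OGT-depleted cells, against 36.0 and 40.7 FPKM in WT cells. These groups did not overlap either, and the higher depleted library was again at 81.0% of the lower WT library. Scaled counts were 2355 and 2714 in OGT-depleted cells and 3567 and 3805 in WT cells, and single libraries set against each other gave between 61.9% and 76.1% of WT. The fitted log2 fold change was -0.54 ± 0.12 (SE, n = 2 per group), or 68.8% of WT, with an adjusted p of 0.0350 in edgeR's quasi-likelihood test. The authors' deposited table gives -0.48 with an adjusted p of 0.00886. The log2 fold change of MGEA5 was -0.59 without WT replicate 1 and -0.49 without WT replicate 2. It was -0.44 without OGT-depleted replicate 1 and -0.65 without OGT-depleted replicate 2. These fits too left 1 library in a group, so they do not settle whether the call rests on a single library.

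The balance of the transcripts for the adding and the removing enzyme was not separated between the groups. Within a library the ratio of OGT to MGEA5 needs no scaling between libraries, and on FPKM it compares the transcripts per length. It was 2.75 and 3.19 in OGT-depleted cells, against 3.19 and 3.58 in WT cells. OGT thus stayed the more abundant of the 2 transcripts in every library. The values of OGT-depleted replicate 2 and WT replicate 1 were 3.1894 and 3.1890, so the groups met at that point. Their 95% counting intervals, exact binomial intervals that cover counting error only, ran from 3.06 to 3.32 in OGT-depleted replicate 2 and from 3.07 to 3.31 in WT replicate 1. The mean ratio was 2.97 ± 0.31 in OGT-depleted cells and 3.39 ± 0.28 in WT cells (SD, n = 2 each). On the log2 scale the difference was -0.19, or 87.7% of WT, with SDs of 0.15 among OGT-depleted and 0.12 among WT libraries. Single libraries set against each other gave between 76.8% and 100.01% of the WT ratio, so these libraries do not separate an equal ratio from a lower one. The two-sided exact permutation p was 0.667, where 2 libraries against 2 cannot go below 0.333.

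The decrease of OGT was the larger in absolute terms. The mean of OGT was lower by 50.4 FPKM and that of MGEA5 by 11.6 FPKM. In WT cells OGT ranked 25 of the 426 listed genes by FPKM, MGEA5 87 and GNPDA1 211, and the median of the listed genes was 11.7 FPKM. Among the 178 listed genes with a decrease, OGT ranked 53 by the size of its log2 fold change and MGEA5 134, and the median decrease was to 64.6% of WT. OGT thus fell by slightly more than the median lower gene and MGEA5 by slightly less.

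**Figure D2:**
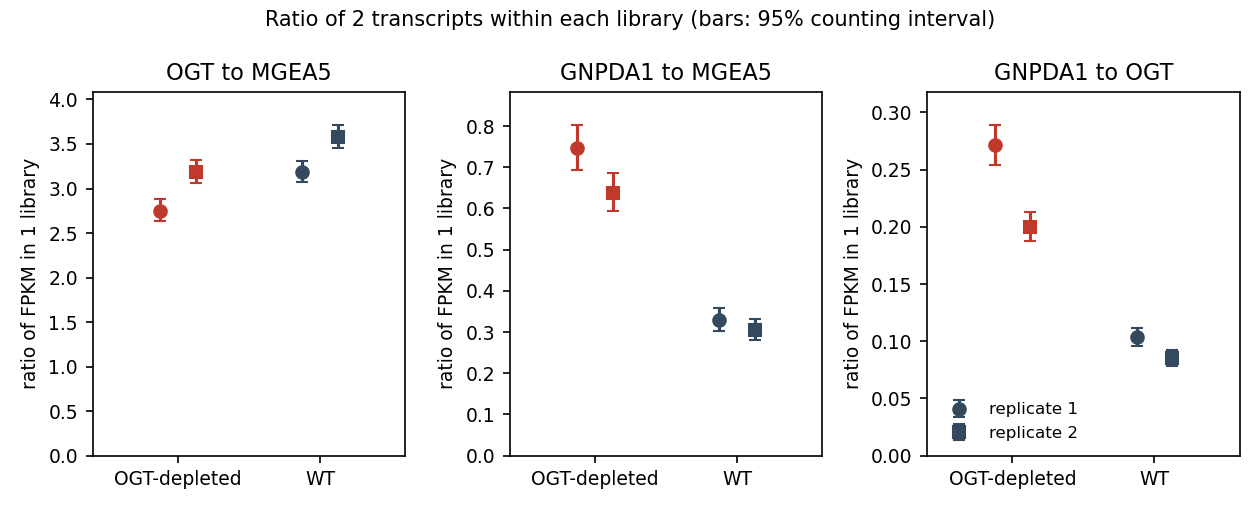
Ratio of FPKM of 2 genes within each library (circles replicate 1, squares replicate 2), OGT-depleted left of WT, with 95% counting intervals as bars. The OGT to MGEA5 ratio of OGT-depleted replicate 2 (3.19) meets that of WT replicate 1 (3.19), while both GNPDA1 ratios are apart between the groups.

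GNPDA1, the glucosamine-6-phosphate deaminase, went the other way, and its replicates were the closest of the 3 genes. It lies on chromosome 5 from 141371314 to 141392606 in hg19 (ENSG00000113552). Its level was 18.1 and 18.6 FPKM in OGT-depleted cells, against 11.9 and 12.4 FPKM in WT cells. The groups lay well apart, with the lower depleted library at 146.3% of the higher WT library. Scaled counts were 1018 and 1004 in OGT-depleted cells and 681 and 671 in WT cells, and every depleted library set against every WT library gave between 1.47-fold and 1.52-fold. The fitted log2 fold change was 0.58 ± 0.12 (SE, n = 2 per group), a 1.49-fold increase, with an adjusted p of 0.0227 in edgeR's quasi-likelihood test. The authors' deposited table gives 0.51 with an adjusted p of 0.0151. Among the 248 listed genes with an increase it ranked 204 by size, the median being 1.87-fold. Without each library in turn the log2 fold change was 0.57 to 0.59, in fits that leave 1 library in a group and so do not settle the call. The call rests on the scaling. With TMM or DESeq2 size factors taken from the listed genes the log2 fold change was 0.37 and 0.092 and the adjusted p in edgeR's test 0.349 and 1. Both of those scalings treat genes chosen as changed as mostly unchanged, and they moved the median log2 fold change of the listed genes by -0.21 and -0.49.

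**Figure D3:**
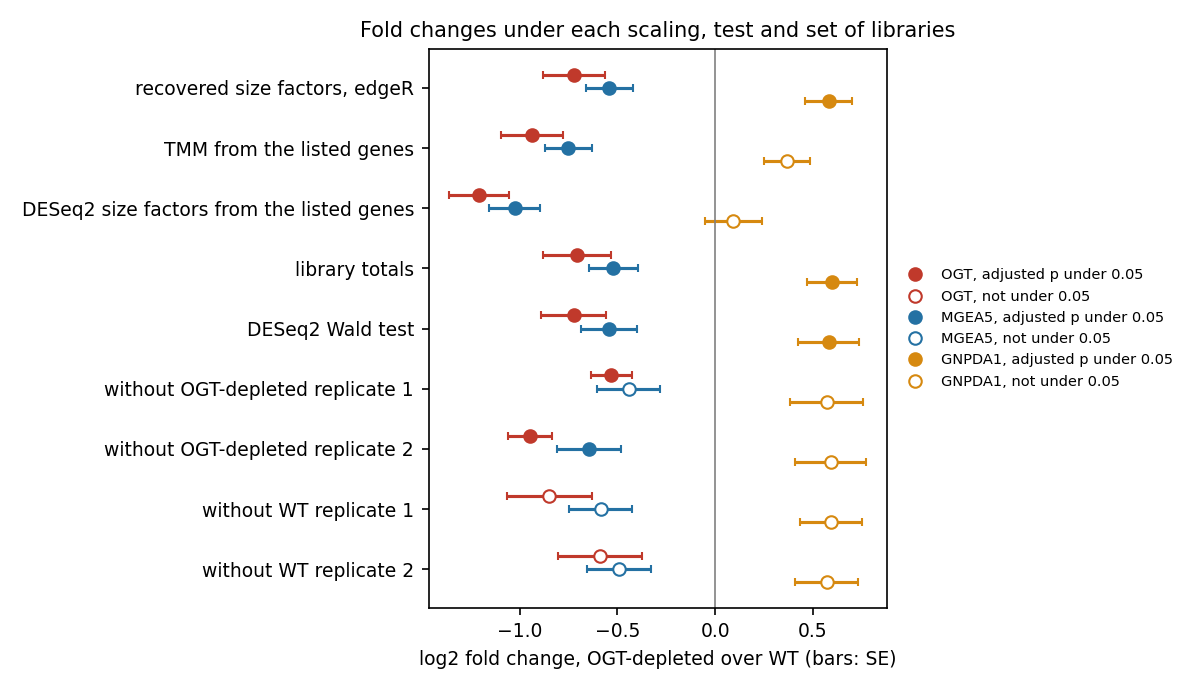
Log2 fold change (OGT-depleted over WT) of OGT, MGEA5 and GNPDA1 with SE bars under the scalings, tests and sets of libraries drawn, filled where the adjusted p was under 0.05. OGT and MGEA5 stay below 0 and GNPDA1 above 0 in each of these, with GNPDA1 at 0.092 under DESeq2 size factors from the listed genes. The fit with the replicate number as a block, the filterByExpr fit and the adjustment over the listed genes alone are not drawn.

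Set against either of the other two genes, which needs no scaling, GNPDA1 was higher in both OGT-depleted libraries. The GNPDA1 to MGEA5 ratio was 0.747 and 0.638 in OGT-depleted cells, against 0.330 and 0.305 in WT cells. The difference was 1.123 on the log2 scale, a 2.18-fold increase of the mean ratio, and single libraries set against each other gave 1.94-fold to 2.45-fold. The GNPDA1 to OGT ratio was 0.271 and 0.2002 in OGT-depleted cells, against 0.103 and 0.0850 in WT cells, a difference of 1.31 or 2.48-fold. The lowest OGT-depleted value was 1.94 times the highest WT value in each. That the groups are apart follows from the choice of the genes, since GNPDA1 is in the table as higher and the other two as lower without overlap, and so it adds no support to the single calls. The two-sided exact permutation p was 0.333 for each, the smallest possible here, and after Benjamini-Hochberg adjustment over the 3 ratios it was 0.50 for these and 0.667 for OGT to MGEA5. For the GNPDA1 ratios that p is fixed by the same choice, and they are given as a description of size.

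**Figure D4:**
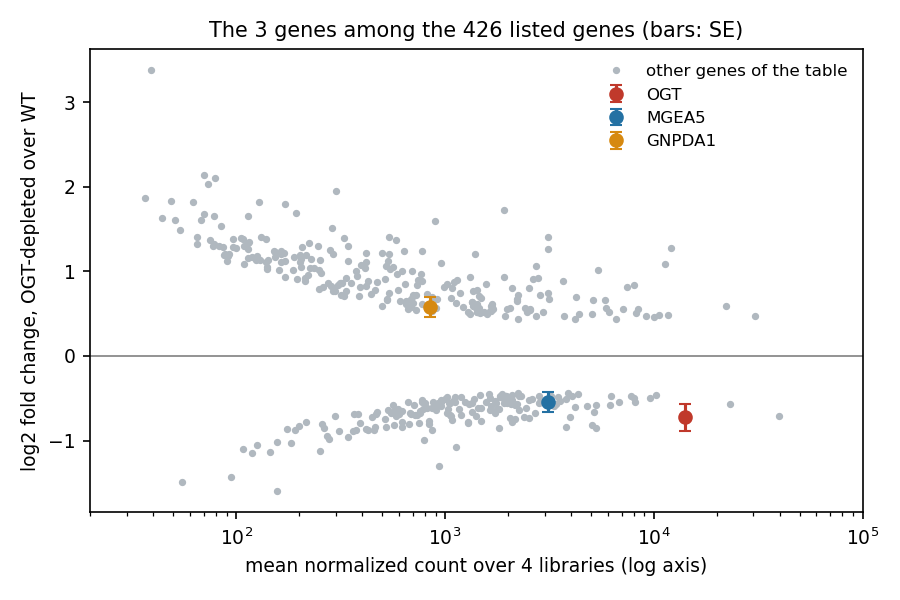
Log2 fold change (OGT-depleted over WT, edgeR) against the mean normalized count on a log axis for the 426 listed genes in grey and the 3 genes in colour with SE bars. OGT, at -0.72, is among the most abundant listed genes, MGEA5 is at -0.54 and GNPDA1 at 0.58.

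All 3 genes passed an adjusted p under 0.05 in edgeR's test, as did 350 of the 426 listed genes, the only ones fitted. With unlisted genes counted as not passing, that is 2.66% of the 13154 genes the authors tested (1.63% higher and 1.03% lower). The authors' table itself lists 3.24% of the tested genes, 1.89% higher and 1.35% lower. With the replicate number as a block, the adjusted p in edgeR's test was 0.0765 for OGT and 0.0629 for MGEA5 and for GNPDA1. Nothing is read from 3 of 3, since the table holds called genes alone, and the groups did not overlap in 426 of the 426 listed genes (100%). By p-value in edgeR's test GNPDA1 ranked 250, OGT 295 and MGEA5 302 among the listed genes. By the adjusted p of the authors' deposited table OGT ranked 120, MGEA5 227 and GNPDA1 264, so the order of the 3 depended on the test.

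Replicates of OGT and, less so, of MGEA5 differed by more than counting error in both groups, and those of GNPDA1 did not. OGT was 1.34-fold higher in replicate 2 than in replicate 1 of the OGT-depleted cells and 1.20-fold higher in replicate 2 of the WT cells. The 95% counting intervals of the scaled counts were 8943 to 9309 and 11974 to 12399 in OGT-depleted cells and 15758 to 16269 and 18915 to 19467 in WT cells, with no overlap. The corresponding differences of MGEA5 were 1.153-fold and 1.07-fold, also upward, and GNPDA1 stood at 0.985 and 0.986 of replicate 1 in OGT-depleted and WT cells. In an exact binomial test of the replicate counts the p of MGEA5 was 2.3e-07 in OGT-depleted and 0.0067 in WT cells. Among the listed genes, the OGT difference lay at percentile 96.9 in OGT-depleted and 86.4 in WT cells. Longer genes tended to be higher in replicate 2 of both groups, with a Spearman rho across the 426 genes of 0.55 in OGT-depleted and 0.40 in WT cells, where the points share their libraries. OGT has a listed length of 7243 bases, MGEA5 of 5146 and GNPDA1 of 2980, against a median of 3538. The line on gene length gave a log2 difference of 0.14 for OGT in OGT-depleted cells and 0.12 in WT cells, out of 0.42 and 0.26 measured. With that line taken out within each group, an alternative chosen after seeing the data, the OGT to MGEA5 ratio was 2.82 and 3.12 in OGT-depleted cells and 3.24 and 3.52 in WT cells, which no longer met. The difference of -0.19 was as before, and the exact permutation p was 0.333. The part of length in the group differences was not tested.

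**Figure D5:**
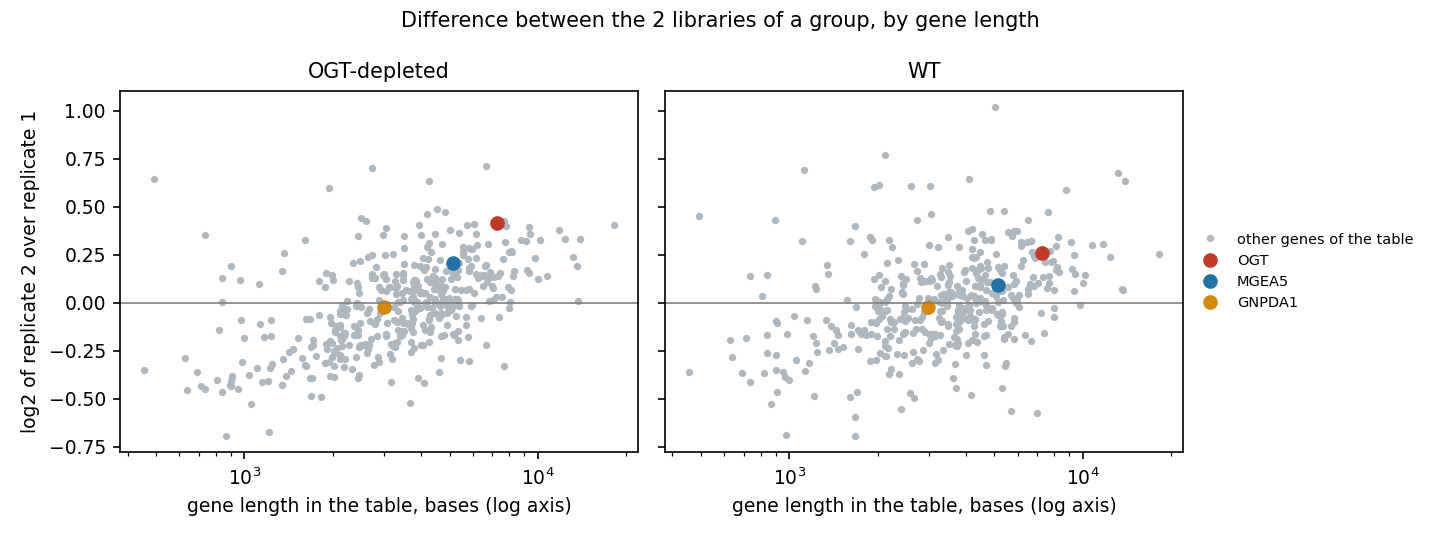
Log2 of replicate 2 over replicate 1 (normalized counts) against gene length on a log axis, for OGT-depleted cells on the left and WT cells on the right, with the 426 listed genes in grey. OGT lies high in both panels (0.42 and 0.26), MGEA5 lower (0.20 and 0.09) and GNPDA1 close to 0 (-0.02 in each).

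The other genes of the pathway list were not in the table, where 3.24% of the tested genes are listed. Of 24 genes of O-GlcNAc cycling and the hexosamine pathway, 3 were listed, OGT, MGEA5 and GNPDA1, with 1 called higher and 2 lower. These 3 had been picked from the listed genes beforehand, so nothing is read from their number. GFPT1 and GFPT2, the rate-limiting amidotransferases, GNPDA2, the paralog of GNPDA1, and the UDP-GlcNAc synthesis genes PGM3 and UAP1 were among the 21 genes not in the table. The levels of genes outside the table are not analysed here. Of 20 genes whose products bind OGT in known complexes, among them HCFC1, TET2 and SIN3A, 0 were listed. At that share, lists of this size hold about 1 gene or none, so nothing is read from these absences. Of 16 splicing regulators, SR proteins and the kinases that phosphorylate them, 2 were listed and both were lower, where 1.35% of the tested genes were listed as lower. The 16 are not all such genes, so the count and the direction hold for this list only. The list was chosen with earlier results of these data known, so nothing is read from its share either. CLK4, a kinase of SR proteins, had 932 and 890 normalized counts in OGT-depleted cells and 1505 and 1320 in WT cells, a fall to 64.5% of WT (adjusted p = 0.0157, edgeR). SRSF10, an SR-like splicing factor, had 6532 and 6755 in OGT-depleted cells and 9463 and 9261 in WT cells, a fall to 71.0% of WT (adjusted p = 0.0461, edgeR). Over all 426 listed genes the median log2 fold change was 0.56.

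The genes nearest to the 3 in profile differed for each of them. Likeness was measured as the root mean square distance between log2 normalized counts, each centred on its own mean, over the 4 libraries, among listed genes with a mean of at least 100. For OGT the 5 nearest were TRERF1, GABRE, PIEZO2, GABBR1 and ABCA2, at distances of 0.047 to 0.063. For MGEA5 they were TFEC, KEL, SREK1, VWDE and GTF3C3, at 0.0052 to 0.035. TFEC, a transcription factor of the MiT family, had 667 and 761 normalized counts in OGT-depleted cells and 1004 and 1073 in WT cells, and it was at 68.7% of WT, where MGEA5 was at 68.8%. For GNPDA1 they were PSMF1, ZFP36L2, C8orf33, BCL2L13 and TSPYL1, at 0.023 to 0.042. OGT and MGEA5 were 0.135 apart. That put MGEA5 at rank 40 of 394 genes by nearness to OGT, and OGT at rank 93 by nearness to MGEA5. All listed genes were chosen for a difference on these libraries, so likeness in profile is a description only.

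Around the 3 genes on their chromosomes, only MGEA5 had listed neighbours within 5 Mb. These were SEC31B (chromosome 10, 102246399 to 102289628), a COPII coat subunit, at 62.5% of WT, RP11-18I14.10 (104209574 to 104220863) at 63.4% and MMS19 (99218081 to 99258551), a factor of cytosolic iron-sulfur assembly, at 72.2%. SEC31B had 489 and 550 normalized counts in OGT-depleted cells and 849 and 815 in WT cells. The adjusted p in edgeR's test was 0.0155 for SEC31B, 0.0378 for RP11-18I14.10 and 0.0513 for MMS19, which did not pass. Of all 426 listed genes 178 were lower and 248 higher. MGEA5 is 1 of 18 lower genes among the 20 listed on chromosome 10, and the part of the chromosome in its decrease was not tested. OGT is 1 of 4 lower genes among the 29 listed on chromosome X, where 25 were higher. The higher ones include genes near the start of the chromosome, such as GTPBP6 (220025 to 230886) and CD99 (2609220 to 2659350). Others lie elsewhere on it, such as BEX1 (102317579 to 102319168). The count is thus not a background for the region of OGT, and its part in the decrease of OGT was not tested. On chromosome 5, which carries GNPDA1, 8 listed genes were lower and 6 higher. In GENCODE release 29 no annotated gene overlaps any of the 3 genes on either strand. Of their distinct stretches of 50 bases in annotated transcripts, 7 of 9941 of OGT, 0 of 7499 of MGEA5 and 0 of 4255 of GNPDA1 occur in a transcript of another gene, so little of their sequence could share reads.

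The libraries held 19883586 and 18849449 counted reads in OGT-depleted cells and 18265260 and 17643474 in WT cells, and the listed genes took 3.97% to 4.26% of them. In edgeR's test 214 listed genes were called higher and 136 lower, a higher share of 61.1%. That share was 43.1% with TMM factors from the listed genes, where 135 were higher and 178 lower, and 30.2% with size factors that DESeq2 takes from them, where 77 were higher and 178 lower. Of 14 megakaryocyte markers TUBB1 alone was listed, at 264 and 336 normalized counts in OGT-depleted cells and 126 and 136 in WT cells, so the identity of the cells could not be checked in this table. With unlisted genes counted as not passing, 1.63% of the tested genes were called higher and 1.03% lower, and 3.24% were listed. Of 20 markers of erythroid, mast, myeloid and lymphoid cells 7 were listed, 5 called higher and 1 lower. They went both ways: the embryonic globin HBE1 was 3.32-fold higher, the mast cell genes TPSAB1, TPSB2 and CPA3 3.86-fold, 3.20-fold and 2.29-fold higher and the granzyme GZMA 4.39-fold higher, while FCER1A was at 60.8% of WT and ITGAM, which was not called, at 73.6%. Their summed normalized count, 9540 to 10605 in OGT-depleted and 10039 to 11050 in WT cells, is mostly that of HBE1, FCER1A and ITGAM and hides these changes. Their part in the results for the 3 genes was not tested.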

How the data were processed

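RNA of 4 MEG-01 libraries was sequenced. The submitters' processing notes name STAR 2.5, TopHat, CASAVA 1.8, DESeq2 and hg19 but not their roles; no counter, annotation or strand setting is stated in the labels. The deposited read counts are raw, per the file headers. FPKM values were computed by the authors from the deposited gene length and total counted reads, which were recovered from them. The deposited group means are a signal, counts divided by size factors (1.06 and 1.04 in OGT-depleted, 0.950 and 0.971 in WT libraries), solved here. The deposited log2 fold changes come from the authors, as do the p-values, raw and adjusted; in 426 of 426 genes the deposited fold change lies closer to 0 than that of the deposited means. The other 2 deposited tables, of 248 higher and 178 lower genes, repeat the rows of the full table.

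edgeR 4.0.16 (glmQLFit, glmQLFTest, R 4.3.3) was fitted to the counts of all 426 listed genes with the recovered size factors. Tests on simulated data used a common dispersion and no selection of called genes, so they do not cover that selection. The p-values were adjusted (Benjamini-Hochberg) over 13154 genes, a number recovered from the deposited adjusted p-values, with unlisted genes counted as not passing. Normalized counts are counts over size factors. Dispersions came from genes chosen as changed (biological coefficient of variation 9.90%). SE was taken as the log2 fold change divided by the root of F. Ratios were tested with exact permutation tests over libraries. Named genes are the 3 genes, the 5 nearest in profile to each, listed neighbours within 5 Mb, and listed members of the gene lists. Members and lists were chosen with earlier results of these data known. Promoter sequences are from RefSeq (GRCh38.p14). Other scalings, tests and sets of libraries were tried as alternatives.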

Additional observations from a re-analysis of the deposited data

How the results depend on the processing

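The directions of the 3 fold changes and of the 3 ratios were the same under every alternative run. With the replicate number as a block in edgeR's test the log2 fold changes were -0.73 for OGT (adjusted p = 0.0765), -0.54 for MGEA5 and 0.58 for GNPDA1 (0.0629 each), and 0 genes were called higher and 0 lower. At an unadjusted p under 0.05 the blocked fit had 248 higher and 178 lower, and the DESeq2 Wald test without a block called 245 and 176. The labels do not tie same-numbered libraries together. Differences between replicates correlated across genes between the groups (Pearson's r = 0.50), a hint from the data only. With TMM factors from the listed genes GNPDA1 had 0.37 and 135 genes were called higher; with DESeq2 size factors from them these were 0.092 and 77. Leaving out each library in turn gave -0.95 to -0.53 for OGT, -0.65 to -0.44 for MGEA5, 0.57 to 0.59 for GNPDA1, 32 to 223 higher calls and 5 to 122 lower calls. The lone library of a group is then assumed to vary like the other group, and without an OGT-depleted library the estimated prior degrees of freedom were infinite; the SE of OGT was then 0.10 and 0.11, against 0.16 with all libraries. The log2 ratio differences ran from -0.30 to -0.08 for OGT to MGEA5, from 1.01 to 1.24 for GNPDA1 to MGEA5 and from 1.09 to 1.53 for GNPDA1 to OGT. Library totals, the DESeq2 test, filterByExpr, which all 426 genes passed, and adjustment over the listed genes changed no call of the 3 genes. Depth does not limit the 3 genes, which have 647 reads or more in every library.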
